A study of Mus musculus with 2 samples.

Results

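Car2, Car3 and Car4 are 3 of the 18193 genes that the array reads through probe sets naming a single gene, and they were read here in endocardial-lineage cells of mouse hearts at embryonic day 12.5. They were taken by symbol, with every probe set that the platform annotation gives to 1 of them and to no other gene, which is 7 probe sets: 1 for Car2, 4 for Car3 and 2 for Car4. The genes were chosen by symbol with their ratios between these arrays already known, so the ratios count as having selected them, are given as a description and carry no test. Mutant cells came from Tie2Cre;Tbx20 loxP/- hearts, which have a floxed and a null allele of the T-box factor gene Tbx20. Control cells came from Tie2Cre;Tbx20 +/loxP hearts, which have a wild-type and a floxed allele. Both genotypes carry Tie2Cre, which drives recombination at loxP in endothelium, endocardium, their descendants and blood cells, so recombined control cells keep a working allele and recombined mutant cells keep none. The null allele is present in every cell of the mutant embryo. The cells were sorted live and negative for CD41, CD45 and Ter119, which mark blood cells, and there was 1 array per genotype, so no difference below has a replicate check, and genotype and preparation cannot be told apart. The labels do not say how many embryos went into each array.

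Carbonic anhydrases are zinc enzymes that interconvert carbon dioxide and water with bicarbonate and a proton. The isoforms differ in speed and in place. Car2 is a fast cytosolic enzyme, known from red blood cells, kidney and osteoclasts. Car3 is a slow cytosolic isoform that is abundant in slow skeletal muscle, fat and liver. Car4 is held on the outer cell surface by a lipid anchor and is known from the capillary endothelium of lung and muscle. Car2 and Car3 are direct protein-coding neighbours on chromosome 3 in the RefSeq table of assembly GRCm38.p6, while Car4 lies on chromosome 11.

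Car3 was strongly lower in mutant cells, Car4 was higher by slightly less than 2-fold, and Car2 was slightly lower. The values are MAS5 signals, linear intensities that Affymetrix software makes from matched and mismatched probes, and each gene is represented by its brightest probe set. A signal was taken as measured when it lay above the median of its array, 82.4 in the mutant and 91.3 in the control. All 3 genes were measured on both arrays, as were 10665 genes in all, whose log2 ratios of mutant over control had a median of -0.01 and an SD of 0.38 across genes. Of the 3 genes, 1 (Car3) was at least 2-fold lower, against 1.46% of all measured genes, and 0 were at least 2-fold higher, against 0.647%. Nothing is read from these counts, because the ratios themselves chose the genes.

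**Figure D1:**
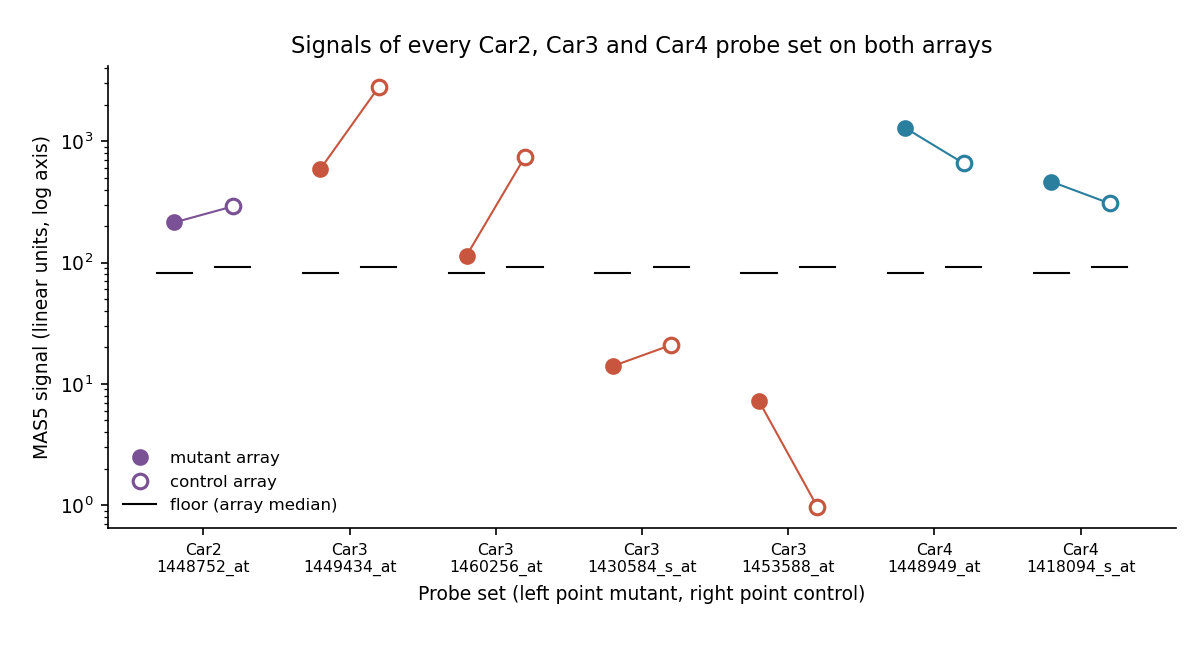
MAS5 signal on a log axis for each of the 7 probe sets, with the mutant array as the filled left point and the control array as the open right point, and the floor of each array (82.4 and 91.3) as a short black line. Both measured Car3 probe sets were lower in the mutant, both Car4 probe sets were higher, and 2 Car3 probe sets lay under the floor on both arrays.

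The brightest Car3 probe set, 1449434_at, read 590 in mutant cells and 2803 in control cells. The mutant signal was thus 21.0% of control, a log2 ratio of -2.25 or a 4.75-fold difference. The control signal stood 30.7 times above the floor of its array and the mutant signal 7.16 times above its own, so Car3 was still read clearly in the mutant. The second measured probe set, 1460256_at, read 114 in mutant cells and 746 in control cells, a log2 ratio of -2.72 or 15.2% of control. Its mutant signal was only 1.38 times the floor, where the mismatch subtraction of MAS5 makes ratios less certain. Both probe sets were therefore lower, averaging -2.48 on the log2 scale (SD 0.33, n = 2 probe sets of the same RNA). This SD is a spread between probe sets and not a spread between animals.

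The other 2 Car3 probe sets gave no usable value. Probe set 1430584_s_at read 14.0 in the mutant and 20.9 in the control, and 1453588_at read 7.20 in the mutant and 0.964 in the control. All 4 of these signals lie under the floors, at most 0.229 of the floor of their array, and have no order. The annotation pairs these 2 dim probe sets with the same sequence record, and the 2 bright ones with another record that they share. Which part of the Car3 transcript each reads was not analysed here.

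Car3 had the lowest ratio of all 10665 genes measured on both arrays. A further 888 genes were above the floor on only 1 array and have no ratio. Genes that fell under the floor in the mutant are therefore outside this ranking. Only 3 of the measured genes were at least 4-fold lower in the mutant. After Car3 these were Btn1a1, which encodes butyrophilin, at -2.06 and Lum, the matrix proteoglycan lumican, at -2.02. Btn1a1 was dim, with a mean log2 signal of 7.66 over the 2 arrays against 10.33 for Car3, so its ratio is less certain. Among 19273 measured probe sets that name a single gene, those of Car3 ranked 1 and 3 from the lowest. Of 5174 genes with several measured probe sets, 14 had both of their brightest probe sets at least 2-fold lower, and 1 (Car3) had both at least 4-fold lower. For scale, the brightest probe sets of a gene differed by a median of 0.29 on the log2 scale and shared a sign in 56.8% of those genes, while those of Car3 differed by 0.47.

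Signals of dim genes scatter more, so each gene was set beside the 500 measured genes nearest to it in mean log2 signal. None of the 500 genes as bright as Car3 had a ratio as low, since theirs ran between -1.14 and 1.22 with a median of 0.05 (SD 0.32). Within that group 5 genes were at least 2-fold lower and 2 at least 2-fold higher. The spread between probe sets of a single gene was 0.35 (pooled SD on the log2 scale over 289 of the 500 genes with several measured probe sets). This is a spread between probe sets, which may read different parts of a transcript, and it holds no spread between embryos or preparations. The 4 genes of like brightness whose ratio came closest were Fabp4, a fatty acid binding protein, at -1.14, Tinagl1, a matrix protein, at -1.10, Msx1, a homeobox factor of cushion mesenchyme, at -1.08, and Col6a1, a collagen chain, at -1.01. Each was still over 1.0 away from Car3 on the log2 scale. This gap depends on where the group of 500 ends. Lum read 736 in mutant cells and 2989 in control cells (-2.02), and Meox1 545 and 2122 (-1.96). Both had signals near those of Car3 but fell outside the 500 genes.

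**Figure D2:**
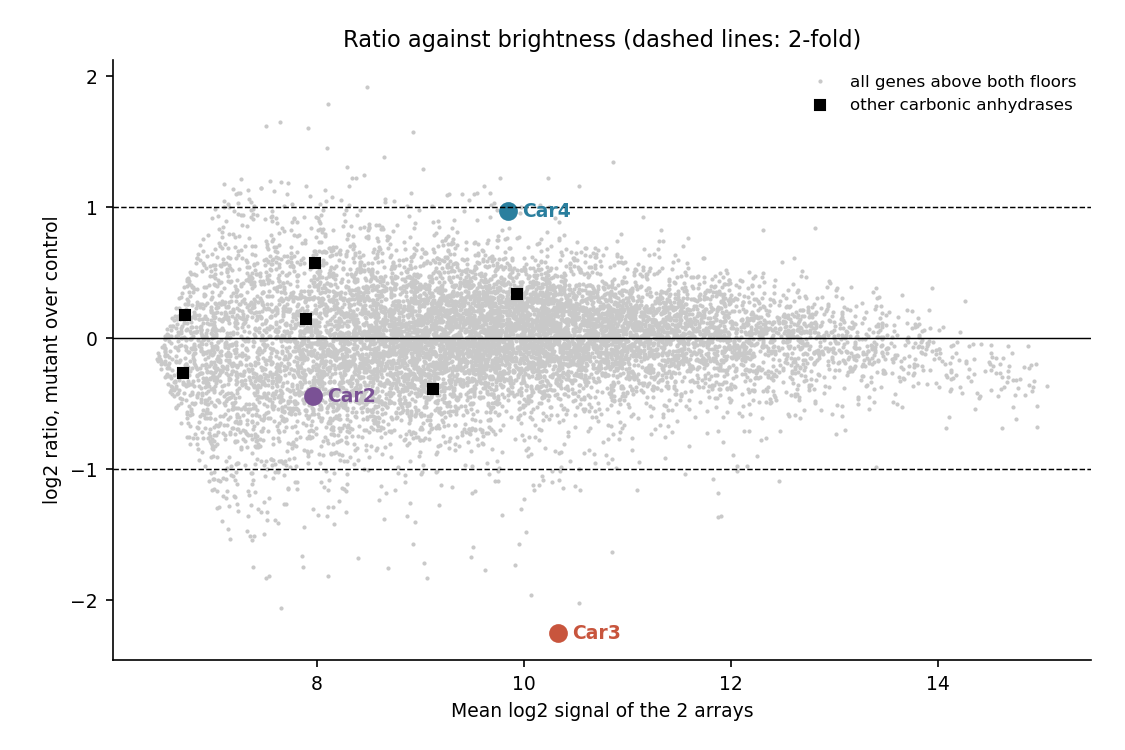
Each grey point is 1 of 10665 genes measured on both arrays, placed by its mean log2 signal (horizontal axis) and its log2 ratio of mutant over control (vertical axis), with dashed lines at 2-fold, coloured circles for Car2, Car3 and Car4 and black squares for 6 other carbonic anhydrases. Car3 lies below every other gene at -2.25, Car4 lies just under the upper line at 0.97, and Car2 at -0.44 lies inside the cloud.

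Car4 was the member that was higher in mutant cells. Its brightest probe set, 1448949_at, read 1289 in mutant cells and 657 in control cells, a log2 ratio of 0.97, so the mutant signal was 196% of control. The other probe set, 1418094_s_at, read 464 in mutant cells and 307 in control cells, a log2 ratio of 0.59 or 151% of control. Both were above the floors by at least 3.36 times on each array, and both were higher, averaging 0.78 on the log2 scale (SD 0.27, n = 2 probe sets). The annotation pairs both probe sets with the same sequence record. Neither reached 2-fold, and they differed by 0.38 on the log2 scale. Their SD of 0.27 was below the pooled SD of 0.37 between probe sets of a single gene at this brightness.

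Among the 500 genes of like brightness, 497 had a lower ratio than Car4 and 3 a higher one. Ratios in that group had a median of 0.06 (SD 0.34), and 2 genes were at least 2-fold higher. Over all measured genes Car4 ranked 80 from the highest. The second probe set was less extreme, at percentile 93.2 of the 500 probe sets nearest to it in brightness, against percentile 99.8 for the first. Genes of like brightness with the closest ratio were Zmym4 at 0.97, Slfn9 at 0.98, Cenpe, a kinesin of the mitotic spindle, at 1.02, and Palmd at 0.84. Their probe sets agreed less well than those of Car4 in some cases, as the second one of Cenpe was at 0.03 and that of Zmym4 at 0.28.

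Car2 was read by a single probe set, 1448752_at, at 214 in mutant cells and 290 in control cells. These signals were 2.59 and 3.18 times the floors of the mutant and the control array. The mutant signal was 73.6% of control, a log2 ratio of -0.44. Of the 500 genes of like brightness, 78 had a lower ratio and 422 a higher one, and their ratios had an SD of 0.46. The pooled SD between probe sets of a single gene was 0.43 there, over 161 genes with several. The Car2 difference was therefore about the size of the disagreement between probe sets of the same gene, and cannot be told apart from such disagreement here. The closest ratios at this brightness belonged to Ptpn21 and Mrap, both at -0.44, and to Mettl7a1 and Hars2, both at -0.43.

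**Figure D3:**
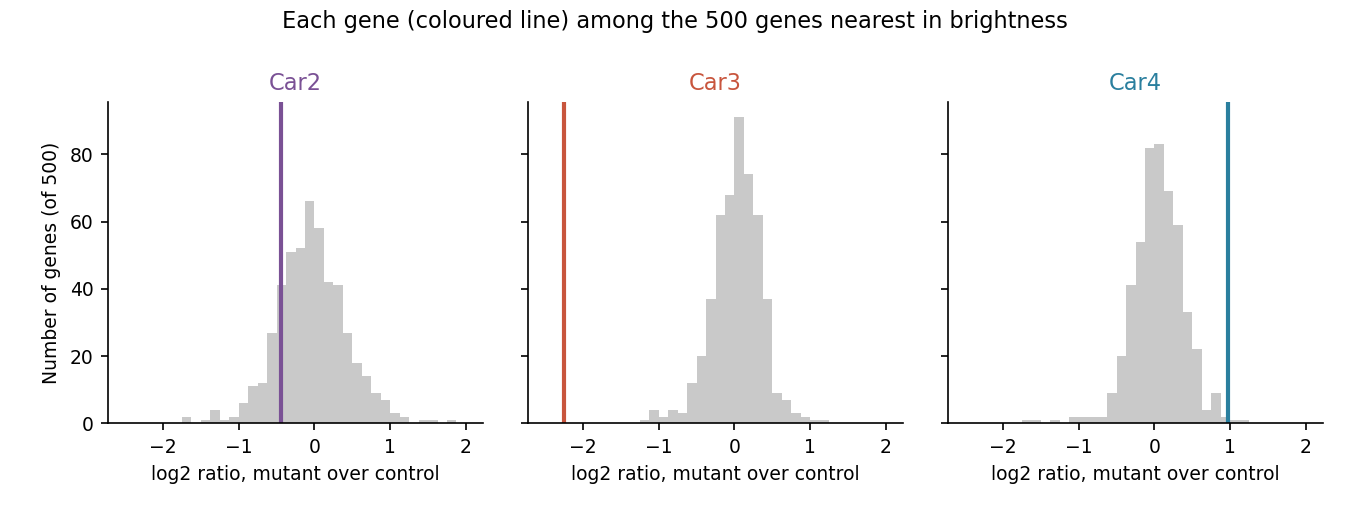
Histograms of the log2 ratio of mutant over control for the 500 measured genes nearest in brightness to Car2, Car3 and Car4, with the gene itself as the coloured vertical line. Car2 lies within its histogram at percentile 15.6, Car3 lies below all 500 genes, and Car4 lies at percentile 99.4.

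Genes that lie side by side had unequal ratios. Car3 and Car2, next to each other among the protein-coding genes, stood at -2.25 and -0.44. Car1, the red cell isoform that precedes Car3 on the chromosome, was under the floor on both arrays, at 13.2 in the mutant and 4.27 in the control. The noncoding A930001A20Rik, next to Car2 on its other side, was under the floors as well. The remaining genes among the 3 on either side of Car2 and Car3 have no probe set of their own. Around Car4, Znhit3 was at 0.29 and Usp32, a ubiquitin protease, at -0.10, and the other 4 neighbours have no probe set of their own.

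The rest of the family was measured in part, and its measured genes all stayed under 2-fold, as Car2 and Car4 did. Of 13 other carbonic anhydrase genes, 6 were measured on both arrays, 1 in the control only and 6 on neither. Over the whole array 10665 of 18193 genes were measured on both. Among the 6 measured genes, 4 were higher and 2 lower in the mutant, where 49.0% of all measured genes were higher and 51.0% lower by any amount. Of the 6, 0 reached 2-fold in either direction, where 1.46% of all measured genes were at least 2-fold lower and 0.647% at least 2-fold higher. Their median log2 ratio was 0.16, against -0.01 for all measured genes, and its sign turned to -0.08 over 9 genes with a lower floor and to -0.12 over 13 genes with a pseudocount in place of the floor. The list was chosen, as the members were, with earlier results of these arrays known.

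Car14, a membrane isoform with its active site outside the cell, had the widest ratio of these, with 309 in mutant cells and 208 in control cells (0.57), at percentile 91.0 of genes of like brightness. Car8, a relative without enzyme activity, read 1101 in mutant cells and 870 in control cells (0.34), with its other measured probe set at 0.57. Car13, a cytosolic isoform from the same chromosome as Car2 and Car3, read 489 in mutant cells and 639 in control cells (-0.39), and its other measured probe set stood at -0.07.

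Car11, another inactive relative, was at 0.15, the mitochondrial Car5b at 0.18 and Car15, a lipid-anchored isoform, at -0.27, the last pair with signals of 113 and 95.3 in the mutant, close to the floor. Car12, a membrane isoform known to be induced by low oxygen, read 51.9 in mutant cells, under the floor, and 115 in control cells, which makes it at least 1.39-fold lower in the mutant. Car9, the other isoform known for induction by low oxygen, was under the floor on both arrays, at 52.8 in the mutant and 55.9 in the control. Car1, Car5a, Car6, Car7 and Car10 were under the floor on both arrays too.

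Genes that carry bicarbonate, protons and lactate across membranes were taken as the partners of these enzymes. Of 23 listed genes, 20 are on the array under a probe set of their own, 10 were measured on both arrays, 1 in the mutant only and 9 on neither. Of the 10, 5 were higher and 5 lower, and the median log2 ratio was 0.01, against -0.01 over all genes. At 2-fold 2 of them were lower and 0 higher, where 1.46% of all measured genes were lower and 0.647% higher.

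The lower pair were transporters. Slc4a4, the sodium bicarbonate cotransporter, read 267 in mutant cells and 583 in control cells (-1.13), and its 3 measured probe sets ran between -1.13 and -0.75. Slc16a7, a monocarboxylate transporter, read 102 in mutant cells, close to the floor, and 210 in control cells (-1.05). The lactate exporter Slc16a3 was at -0.43. On the other side, Slc9a3r1, a scaffold protein of ion exchangers, read 2034 in mutant cells and 1293 in control cells (0.65), and its 3 measured probe sets ran between 0.65 and 1.16. The anion exchanger Slc26a6 was measured in the mutant only, at 150, and was at least 1.65-fold higher there.

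**Figure D4:**
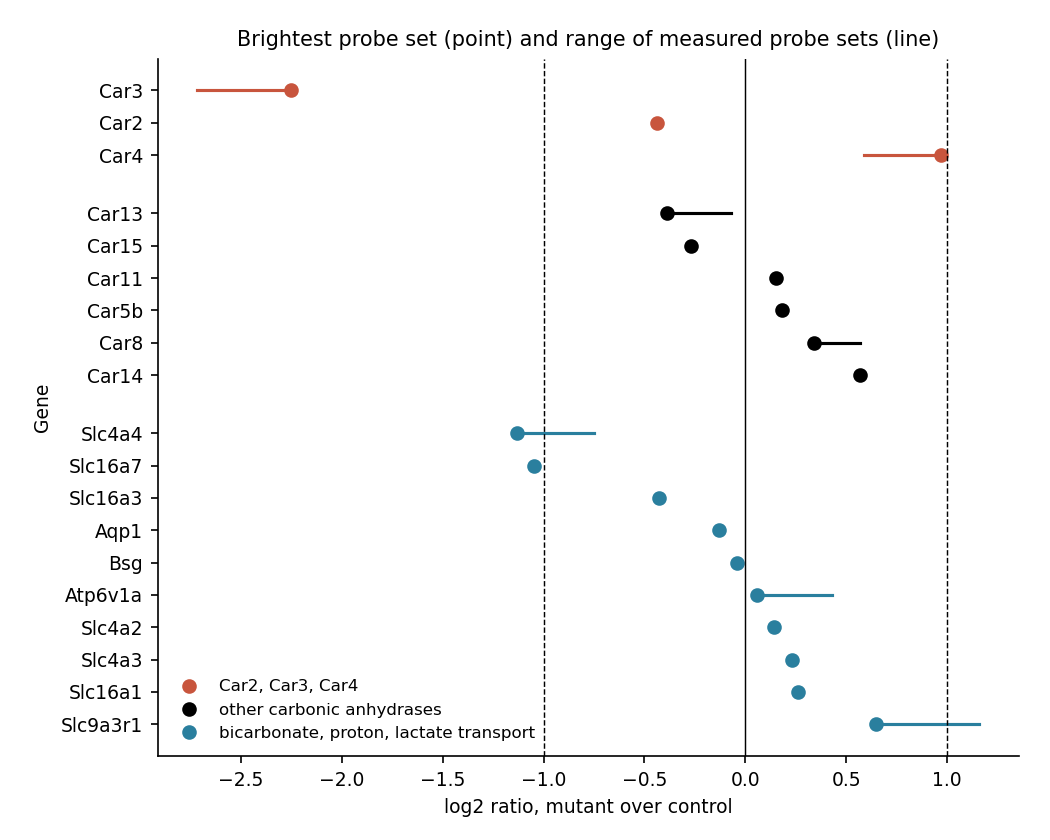
Log2 ratio of mutant over control (horizontal axis, dashed lines at 2-fold) for Car2, Car3 and Car4, 6 other carbonic anhydrases and 10 transport genes measured on both arrays; the point is the brightest probe set and the line spans all measured probe sets of the gene. Car3 lies far to the left of all the others, and Slc4a4 and Slc16a7 are the other genes past the lower 2-fold line.

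Lists of cell types that could carry these enzymes were read on the same arrays. Over all measured genes 49.0% were higher and 51.0% lower by any amount, and each list below is to be read beside these shares. In bulk RNA, fewer cells of a type and less RNA per cell cannot be told apart, and the part of any of these lists in the carbonic anhydrase values was not tested. The sorted lineage itself was well represented, with all 12 endothelial and endocardial markers measured, 9 of them higher and 3 lower, a median log2 ratio of 0.08 and summed signals of 70491 in the mutant and 67125 in the control. Npr3 of that list was at 0.25 and Nfatc1 at -0.33, though the 5 measured probe sets of Nfatc1 ran between -1.58 and 0.16. Some markers of other cell types were bright too. The cardiomyocyte marker Myl7 read 6753 in the mutant and 3811 in the control, the epicardial Upk3b 2961 and 1163, and the red cell Hbb-y 6606 and 9843. Each of these 3 lists also held markers under the floor on both arrays. How far RNA of such cells enters the carbonic anhydrase values was not tested.

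Beside Car3, most cushion mesenchyme markers read lower. Of 12 markers, 12 were measured, 11 were lower and 3 of these by at least 2-fold, against 51.0% and 1.46% of all measured genes, with a median of -0.51 and summed signals of 58374 in the mutant and 73797 in the control. Lum, Meox1 and Msx1 were the lowest, at -2.02, -1.96 and -1.08, while Col3a1 and Sox9 at -0.07, Col1a1 at -0.11 and Pdgfra at -0.13 were close to 0. The 3 measured probe sets of Pdgfra ran between -0.81 and 0.20. Of 9 fat cell markers, 7 are on the array, 2 were measured, and Adipoq, Cidec, Lep and Retn were under the floor on both arrays. The summed signals were 2262 in the mutant and 2992 in the control. Fabp4 read 898 in mutant cells and 1983 in control cells (-1.14), and without it the sum would be higher in the mutant. Lpl was at 0.27. Fabp4 and Lpl are also on the list of capillary endothelial markers below, so they are not particular to fat cells here. Pparg, the remaining fat cell marker on the array, was above the floor in the mutant only, at 219, and was at least 2.40-fold higher there. Of 12 slow and skeletal muscle markers, 7 were measured, 5 of them higher and 2 lower, with a median of 0.22 and summed signals of 11111 in the mutant and 11855 in the control. The skeletal muscle markers Myod1, Myog, Ckm and Actn3 were under the floors on both arrays, and those measured, such as Tnnc1 at 0.52 and Tnni1 at -0.36, are also expressed in embryonic heart muscle.

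Beside Car4, capillary endothelial markers went both ways. Of 13 markers, 9 were measured, 3 higher and 6 lower, with a median of -0.17 and summed signals of 20472 in the mutant and 17837 in the control. Ednrb, an endothelin receptor, read 9622 in mutant cells and 5377 in control cells (0.84). Without Ednrb the summed signal of this list would be lower in the mutant. Its 3 probe sets were all higher but unequal, from 0.29 to 0.84. The lowest marker was Fabp4, at -1.14. Aplnr, the apelin receptor, stood at -0.88 by the brightest probe set and at -0.23 by the second. Epicardial markers were higher on the same array, with 8 of 8 measured markers higher and 2 by at least 2-fold, against 49.0% and 0.647% of all measured genes, a median of 0.62 and summed signals of 8783 in the mutant and 5045 in the control. Cardiomyocyte markers had a median of 0.22 over 11 measured markers, 7 higher and 4 lower, and summed signals of 21582 in the mutant and 17070 in the control.

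Beside Car2, red cell markers were mostly lower. Of 17 markers, 13 are on the array and 6 were measured, 5 of them lower and 2 by at least 2-fold, against 51.0% and 1.46% of all measured genes, with a median of -0.77 and summed signals of 8724 in the mutant and 12703 in the control. Hbb-y, an embryonic globin, was at -0.58 and Klf1, the erythroid factor, at -1.10, while Epor, the erythropoietin receptor, was at 0.51. Gata1, Rhag and Epb42 were under the floor on both arrays. Of 14 macrophage markers, 10 were under the floor on both arrays, among them Ptprc, Adgre1 and Spi1, and 1, Cd68, was measured on both, at 0.79. Above the floor in the control only were Cx3cr1, at least 2.74-fold lower in the mutant, and Csf1r, at least 1.74-fold lower, and in the mutant only Mrc1, at least 1.26-fold higher. The summed macrophage signals were 630 in the mutant and 714 in the control.

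Tbx20 itself was measured on both arrays by 3 probe sets, which read 6416, 5262 and 4245 in the mutant and 7638, 6128 and 7050 in the control. The log2 ratios were -0.25, -0.22 and -0.73. The deleted exons are not named in the labels, so whether any of these probe sets reports the deletion is unknown. All 18 hybridisation spike probe sets read lower on the mutant array, at -0.45 on average on the log2 scale. For Gapdh, the signal at the 3′ end over that at the 5′ end, a sign of RNA quality, was 1.64 in the mutant and 2.27 in the control, and for Actb 0.998 in the mutant and 0.989 in the control. Whether the differences in spikes and Gapdh touch the carbonic anhydrase ratios was not tested.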

How the data were processed

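The deposited values are intensities, 1 MAS5 signal per probe set and array, per the submitters' processing notes, which give no version. Trimmed of 2% of probe sets at either end, each array averaged 500, which is the kind of scaling that MAS5 applies. A genome build is not given in the sources. Of 45101 probe sets, 64 were array controls, and 34945 of the others name 1 gene in the platform annotation. Probe sets that name several genes or none were left out.

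From the deposited signals, log2 ratios of mutant over control were computed as they stand. A gene took its brightest probe set by mean log2 signal and counted as measured above the median of both arrays. Where only 1 array was above, the fold is a lower bound that uses the other array's floor. With 1 array per genotype no p-value or test was computed, and the number of arrays limits the precision. Genes of like brightness are the 500 measured genes nearest in mean log2 signal. Listed genes were matched by symbol or by a synonym in the RefSeq table, which matched Slc9a3r1 to the listed name Nherf1.

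The members, the gene lists and the rules were chosen with earlier results of these data known. The text names the members, all other carbonic anhydrases and, of the transport and cell type lists, genes among the 4 widest. It also names the 4 genes of like brightness with the closest ratio, the 3 genes on either side of a member and Tbx20. Markers named as under the floor on 1 or both arrays or as close to 0, Epor, Slc26a6 and Btn1a1 fall outside this rule and were picked after their values were seen.

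Alternatives were 3 other scalings (a common median, quantile, and loess with a span of 0.3), 2 other floors, a pseudocount of each array's median, the median over probe sets, folds of 1.5 and 3, and 200 or 1000 genes of like brightness. The steps were tested on simulated data for the comparison of mutant with control: of 200 genes given a known change, 189 were above the floor among 10895 genes, and 188 had the right sign. This checks the steps only, because the noise between real preparations is unknown with 1 array per genotype. Python 3.11.15, numpy, pandas and statsmodels were used.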

Additional observations from a re-analysis of the deposited data

How the results depend on the processing

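The ratios of the 3 genes kept their direction under every alternative that gave a value. Car3 ranged from -2.48 with the median over probe sets to -2.11 with a pseudocount, and Car4 from 0.78 to 0.97. Car2 ranged from -0.46 to -0.37 and had no value with the floor at the 75th percentile, since its signal lay under that floor. Each moved by less than the pooled SD between probe sets of a single gene at its brightness. Car4 stayed under 2-fold throughout. With 200 or 1000 genes of like brightness, Car2 stood at percentile 17.5 and 19.8, Car3 at 0.00 in both and Car4 at 99.5 and 99.3. The median of the other carbonic anhydrases ran between -0.12 and 0.34, its highest value resting on 1 gene with the higher floor, and that of the transport genes between -0.05 and 0.06, so neither has a settled sign.

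The count of genes past the fold depends on the floor and the fold. At least 2-fold higher were 69 genes, against 233 with the floor at the 25th percentile, 12 at the 75th and 25 with a pseudocount. At least 2-fold lower were 156, against 537 with the lower floor and 34 with the higher one. At 1.5-fold 466 genes were higher and 705 lower, and at 3-fold 5 and 19. Other scalings gave 61 to 85 higher and 136 to 164 lower genes. No paired analysis was possible because each genotype has 1 array. Signal over background limits Car2 and the weaker Car3 probe set in the mutant most.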
